A study of Mus musculus with 8 samples.

Results

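Differentiating spermatogonia are described here through 10 genes chosen by name as markers of that stage, *Kit*, *Sohlh1*, *Sohlh2*, *Dmrtb1*, *Ccnd2*, *Uchl1*, *Lin28a*, *Nanos3*, *Sall4* and *Rarg*. All 10 were present among the 54532 genes of the deposited table. The rule that picks them uses their names, and the genes were proposed with earlier results of these data known. Whole-testis RNA was sequenced from 8 tamoxifen-treated male mice on a C57BL/6J background, 4 control and 4 *Spdya* conditional knockout (cKO) mice, with 1 library per mouse. In both groups spermatogenesis was synchronized: an inhibitor of retinoic acid synthesis held spermatogonia back, and a retinoic acid injection on postnatal day 9 (RA0) released them. Both groups carried the floxed allele on both chromosomes (Spdyafl/fl) and the labels give tamoxifen on RA7.5 and RA8.5; testes were collected at RA11.5, when the study describes the germ cells as mid-late pachytene spermatocytes. The cKO mice also carried Ddx4-CreERT2, a tamoxifen-activated Cre recombinase made in germ cells under the germ cell gene *Ddx4*, which removes exon 2 of *Spdya*. The controls were *Spdyafl/fl* mice without that Cre, so Cre and the deletion differ together between the groups. Values are FPKM, fragments per kilobase of gene length relative to a library size that the authors scaled.

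Differentiating spermatogonia are the mitotic germ cells that retinoic acid commits to meiosis. On that commitment they gain the receptor tyrosine kinase KIT, whose ligand is made by Sertoli cells, and transcription factors such as SOHLH1, SOHLH2 and DMRTB1, while cyclin D2 accompanies the renewed divisions. Several genes of this group are shared with the undifferentiated spermatogonia that precede them: *Uchl1*, *Lin28a*, *Nanos3* and *Sall4* are made on both sides of the transition, and *Rarg* encodes the retinoic acid receptor through which the transition is triggered. *Kit* is also made by Leydig and mast cells, and *Ccnd2* and *Rarg* by somatic cells. Whole-testis RNA from pachytene-stage testes therefore holds these transcripts as a sum over cell types. A change in the number of spermatogonia, up or down, cannot be told apart from a change in RNA per cell. The study also sequenced single cells from pooled testes of both groups, collected slightly later. There spermatogonia took up a larger share in the cKO group and spermatocytes a smaller one, which the study reads as spermatocyte loss. The part of such a shift in the values below was not tested.

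*Dmrtb1*, *Sohlh2*, *Ccnd2* and *Uchl1* were higher on average in the cKO libraries, but no difference passed the test across all genes and no gene separated the groups. The largest differences were those of *Dmrtb1*, 1.42-fold higher on average in the cKO libraries (95% interval 1.12 to 1.804), *Sohlh2*, 1.34-fold (1.03 to 1.74), *Ccnd2*, 1.33-fold (0.957 to 1.85), and *Uchl1*, 1.27-fold (0.989 to 1.63). *Kit*, which gives the stage its usual surface marker, was 1.03-fold (0.868 to 1.22). The intervals of all 10 genes lay within 1 on either side of 0 on the log2 scale, so a 2-fold change of any of them in either direction was outside its interval.

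The groups were compared by limma, a linear model fitted to log2(FPKM + 0.1) of each gene with a spread shared across genes. It called 0 of the 10 (adjusted p below 0.05, log2 fold change beyond 1 in either direction), where 0.0165% of the 12141 genes tested were called. The voom fit on recovered fragments called 0 as well. At an unadjusted limma p below 0.05, 2 of the 10 were higher in the cKO group, *Dmrtb1* and *Sohlh2*, against 5.89% of all genes, and 0 were lower, against 5%. The groups did not overlap for 0 of the 10, against 3.64% of all genes with the cKO libraries higher and 2.59% with them lower. The log2 fold change was above 0 for 7 of the 10 and for 52% of all genes. The median log2 fold change was 0.13 for the 10 genes and 0.01 for all genes tested, and the median absolute log2 fold change was 0.16 and 0.13. With 10 genes these counts are a description and no test was made of them.

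**Figure D1:**
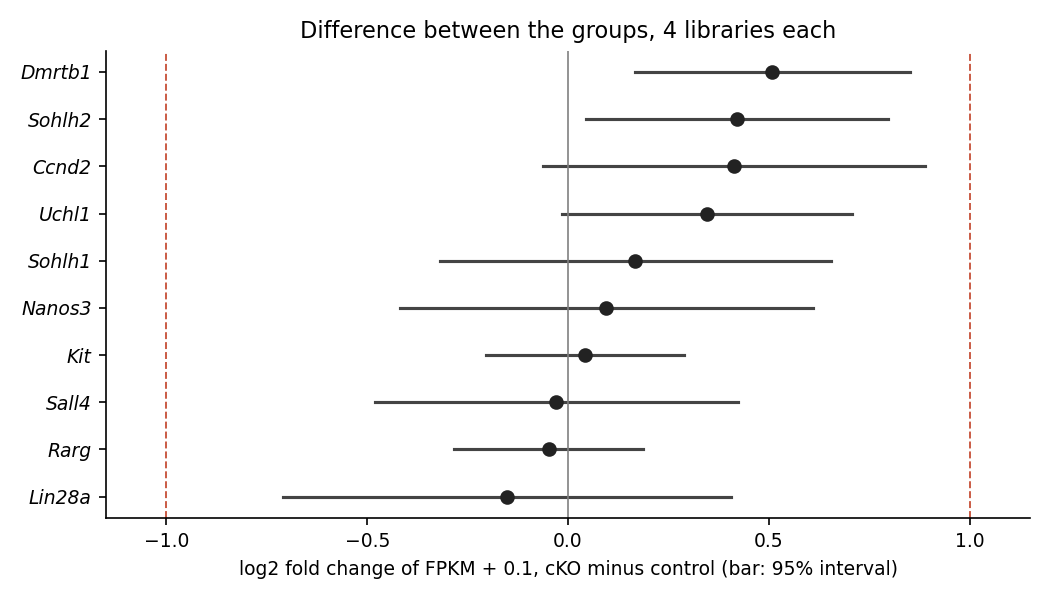
Log2 fold change (cKO minus control) of log2(FPKM + 0.1) for each of the 10 genes; points are limma estimates over 4 libraries per group, bars their 95% intervals and dashed lines the calling threshold of 1 on either side. The intervals of *Dmrtb1* (0.17 to 0.85) and *Sohlh2* (0.05 to 0.80) lay above 0 before adjustment for all genes tested, and no interval reached a dashed line.

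Libraries held 13978342 to 17867570 fragments on genes in the control group and 15494873 to 19583091 in the cKO group. Control replicate 1 stood apart in its share of fragments on mitochondrial genes, 0.464% against 2.97 to 3.39% in the other controls and 2.20 to 3.74% in the cKO libraries. It stood apart over all genes too. Its squared differences per gene from the other controls were 60.0 to 81.7 times counting noise. Among the other controls they were 12.1 to 20.5 times it, and among cKO libraries 3.94 to 21.1 times. It also had the fewest genes above 0 (26636, against 28450 to 29343) and the lowest array weight (0.161). The values of the 10 genes without it are given beside their results. *Spdya* averaged 21.4 FPKM in the control and 24.1 FPKM in the cKO libraries, over all its exons, so its level is no check of an exon 2 deletion. The 10 spermatocyte markers summed to 1786 to 2772 FPKM in the controls and 1591 to 2448 FPKM in the cKO libraries, and ranged from *Ccna1* (0.834 to 1.95 FPKM) to *Ybx2* (449 to 743 FPKM). The 7 round spermatid markers summed to 3.62 to 10.3 FPKM and 5.65 to 7.03 FPKM. Of these *Spaca1* was at 1.92 to 8.99 FPKM and *Tssk1* at 0.694 to 1.14 FPKM, and the other 5, the protamine and transition protein genes among them, at 0 to 0.580 FPKM.

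The promoter windows of 4 of the genes are shown because 3 of them encode transcription factors of differentiation, SOHLH1 and SOHLH2 belong to the basic helix-loop-helix class that binds E-boxes, and *Kit* is a known target of that pair. Each holds 300 bases around the RefSeq start, on GRCm38.p6, 5′ to 3′ on the strand of the gene, with matches to the E-box CANNTG in capitals. The motif reads the same on both strands.

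Kit (chr5:75574737-75575036, + strand): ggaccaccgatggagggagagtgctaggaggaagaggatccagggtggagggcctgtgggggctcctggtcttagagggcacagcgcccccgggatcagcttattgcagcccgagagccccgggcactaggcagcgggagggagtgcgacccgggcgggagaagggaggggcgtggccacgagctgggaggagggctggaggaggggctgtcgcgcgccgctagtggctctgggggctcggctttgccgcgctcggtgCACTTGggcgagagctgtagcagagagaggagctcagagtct

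Sohlh1 (chr2:25847199-25847498, - strand): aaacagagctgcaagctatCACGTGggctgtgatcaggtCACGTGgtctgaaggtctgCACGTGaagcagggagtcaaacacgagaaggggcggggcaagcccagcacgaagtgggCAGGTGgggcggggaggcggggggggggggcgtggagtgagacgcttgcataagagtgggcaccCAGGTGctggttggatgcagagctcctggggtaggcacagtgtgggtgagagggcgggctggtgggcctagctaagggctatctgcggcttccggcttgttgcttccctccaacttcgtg

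Sohlh2 (chr3:55181794-55182093, + strand): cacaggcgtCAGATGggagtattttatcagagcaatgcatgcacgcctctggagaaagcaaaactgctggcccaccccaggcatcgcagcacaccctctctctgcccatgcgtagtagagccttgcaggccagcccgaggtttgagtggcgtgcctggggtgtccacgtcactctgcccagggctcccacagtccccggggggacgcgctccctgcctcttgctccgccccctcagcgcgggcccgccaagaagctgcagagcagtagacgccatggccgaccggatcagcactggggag

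Dmrtb1 (chr4:107684181-107684480, - strand): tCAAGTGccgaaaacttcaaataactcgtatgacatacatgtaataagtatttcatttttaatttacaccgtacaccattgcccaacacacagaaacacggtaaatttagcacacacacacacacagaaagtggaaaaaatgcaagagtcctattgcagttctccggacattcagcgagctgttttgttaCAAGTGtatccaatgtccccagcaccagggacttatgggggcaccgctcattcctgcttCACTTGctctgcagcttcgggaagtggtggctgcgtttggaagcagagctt

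Promoter windows were found for 8 of the 10 genes (not for *Ccnd2* and *Sall4*). CANNTG occurred in 6 of the 8 windows, and in 72.3% of all 32851 windows of the same length, so that the letters are common. *Sohlh1* held 5 matches, *Dmrtb1* 3, *Nanos3* 2, and *Kit*, *Sohlh2* and *Rarg* 1 each, against a median of 1 over all windows. The start of the *Nanos3* window lies 8665 bases from the annotated start of the gene in GENCODE, and the other 7 within 71 bases. *Kit*, *Dmrtb1* and *Rarg* have 2 windows each, of which the nearer to that start was used. Of the 5 in *Sohlh1*, 3 read CACGTG, beginning at -231, -211 and -192 bases from the start; this form was counted after the sequence had been read. At least 1 CACGTG occurred in 7.15% of all windows and 3 or more in 0.0883%. The retinoic acid receptor half-site AGGTCA, searched on both strands, was present in the windows of *Sohlh1* and *Rarg* and in 16.3% of all windows. In *Sohlh1* it overlapped 1 of the CACGTG matches. The GC box GGGCGG, also searched on both strands, occurred in 6 of the 8 windows and in 35.7% of all windows. These matches describe the letters and do not show that a factor binds there.

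The receptor gene *Kit* (ENSMUSG00000005672, chromosome 5 of GRCm38, 75574916 to 75656722, + strand) had 8.96, 8.48, 10.03 and 9.80 FPKM in control replicates 1 to 4 and 10.9, 8.30, 9.48 and 9.77 FPKM in cKO replicates 1 to 4. The highest and the lowest of the 8 values were both cKO libraries, so the cKO range enclosed that of the controls. The means were 9.32 ± 0.724 FPKM (SD, n = 4) in the control and 9.62 ± 1.08 FPKM (SD, n = 4) in the cKO group, and the log2 fold change was 0.04, with a standard error of 0.11 (adjusted p = 0.924 by limma, exact permutation p = 0.686, two-sided). It was 0.0247 without control replicate 1.

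The spread of *Kit* within groups, 0.14 on the log2 scale, was smaller than that of most genes: 22.3% of the 12141 genes tested varied less, and their median was 0.21. Its level lay near the middle of these genes, at the 48.9th percentile of mean control FPKM. The ligand gene *Kitl*, made by Sertoli cells, had 24.6, 21.8, 17.5 and 29.9 FPKM in the controls and 22.0, 26.2, 25.8 and 29.7 FPKM in the cKO libraries, a log2 fold change of 0.16 (limma adjusted p = 0.779). *Kit* was 0.327 to 0.575 times the level of *Kitl* in the controls and 0.317 to 0.498 times in the cKO libraries, and these ranges overlapped for most of their length.

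The 9 genes of the Kit signalling list, from the ligand through the adaptor *Grb2* and the PI3-kinase subunits to the AKT kinases and the inhibitor *Cbl*, were all measured. None was called and none reached an unadjusted p below 0.05 (lowest limma adjusted p = 0.498), with 6 of 9 log2 fold changes above 0 and a median of 0.16. *Akt2* averaged 28.2 FPKM in the control and 32.5 FPKM in the cKO group, *Grb2* 20.8 and 24.5 FPKM, and *Pik3cd*, the catalytic subunit delta, 5.81 and 4.53 FPKM. *Akt2* was the gene of this list whose cKO libraries (31.3 to 33.3 FPKM) all lay above its control libraries (24.4 to 30.9 FPKM), in a test where 3.64% of all genes did so. Other lists below held such genes too, among them *Etv5*, *Aldh1a3* and *Csf1r*. For *Aldh1a2* and *Ccna1* all cKO libraries lay below all controls.

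The transcription factor genes held the largest difference of the 10. *Dmrtb1* (ENSMUSG00000028610, chromosome 4, 107676290 to 107684230, - strand), which encodes a DM-domain factor that controls the switch from mitosis to meiosis, had 29.6, 46.3, 37.9 and 33.0 FPKM in the controls and 60.7, 48.1, 53.7 and 45.0 FPKM in the cKO libraries. The 3 highest values of the 8 were cKO libraries, and control replicate 2 lay above cKO replicate 4, so that the groups overlapped by this 1 pair. The means were 36.7 ± 7.23 and 51.9 ± 6.91 FPKM (SD, n = 4 each), and the log2 fold change was 0.51, with a standard error of 0.15 (limma p = 0.00797 before and adjusted p = 0.287 after adjustment over all genes, exact permutation p = 0.0571, two-sided). With 4 libraries against 4, 0.0286 is the smallest p that the permutation test can give.

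*Sohlh2* (ENSMUSG00000027794, chromosome 3, 55182028 to 55209957, + strand) had 11.2, 14.9, 16.8 and 13.01 FPKM in the controls and 21.8, 14.8, 22.2 and 16.4 FPKM in the cKO libraries. Only cKO replicates 1 and 3 lay above all controls, and the other two fell inside the control range. The means were 13.96 ± 2.39 and 18.8 ± 3.76 FPKM (SD, n = 4 each), with a log2 fold change of 0.42, with a standard error of 0.17 (limma p = 0.0315 before and adjusted p = 0.413 after adjustment over all genes, exact permutation p = 0.143).

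*Sohlh1* (ENSMUSG00000059625, chromosome 2, 25842995 to 25847248, - strand), whose product pairs with SOHLH2, had 47.1, 38.5, 23.4 and 23.0 FPKM in the controls and 37.6, 36.3, 33.5 and 33.99 FPKM in the cKO libraries. All 4 cKO values fell in the gap between control replicates 1 and 2, which were high, and control replicates 3 and 4, which were low. The means were 33.0 ± 11.8 and 35.4 ± 1.91 FPKM (SD, n = 4 each), so the coefficient of variation was 35.9% in the controls and 5.41% in the cKO group. Over all genes, too, most control libraries differed more from each other than most cKO libraries did. How far the gap is particular to *Sohlh1* was not tested. The log2 fold change was 0.17, with a standard error of 0.22 (adjusted p = 0.831 by limma, exact permutation p = 0.486).

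*Sohlh1* and *Sohlh2* did not move together over the libraries. *Sohlh1* was 4.20, 2.59, 1.40 and 1.77 times the level of *Sohlh2* in control replicates 1 to 4, and 1.72, 2.46, 1.51 and 2.07 times in the cKO libraries. Control replicate 1, which had the highest *Sohlh1* and the lowest *Sohlh2* value of all 8, set the top of that range.

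Without control replicate 1 the log2 fold change was 0.41 for *Dmrtb1* (limma adjusted p = 0.209), 0.32 for *Sohlh2* (adjusted p = 0.364) and 0.36 for *Sohlh1* (adjusted p = 0.336). None of these was past the threshold with or without that library. Over the 8 single libraries left out in turn, *Dmrtb1* ranged from 0.41 to 0.63 and *Sohlh2* from 0.32 to 0.53, so both stayed above 0. *Sohlh1* ranged from 0.0182 without control replicate 4 and 0.0258 without control replicate 3, its low controls, to the 0.36 without control replicate 1.

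**Figure D2:**
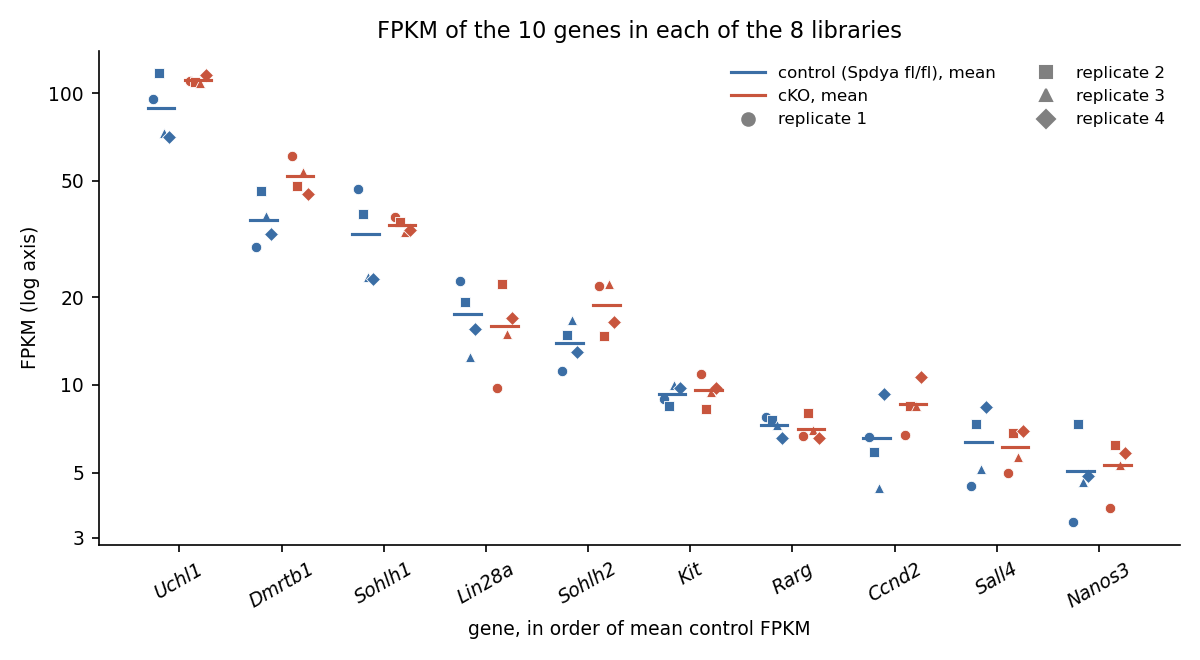
FPKM (log axis) of the 10 genes, in order of mean control level, for 4 control and 4 cKO libraries; each symbol is 1 library, its shape gives the replicate number and the bar is the mean of the group. The groups overlapped for all 10 genes, from *Uchl1* at 71.0 to 117 FPKM in the controls down to *Nanos3* at 3.39 to 7.34 FPKM.

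*Ccnd2* (ENSMUSG00000000184, chromosome 6, 127125162 to 127152193, - strand), which encodes cyclin D2, a partner of CDK4 and CDK6, had 6.61, 5.90, 4.45 and 9.31 FPKM in the controls and 6.76, 8.49, 8.47 and 10.6 FPKM in the cKO libraries. Control replicate 4 was above 3 of the 4 cKO libraries, and the highest value was cKO replicate 4. The means were 6.57 ± 2.04 and 8.58 ± 1.57 FPKM (SD, n = 4 each), with a log2 fold change of 0.41, with a standard error of 0.21 (adjusted p = 0.540 by limma, exact permutation p = 0.171).

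The value for *Ccnd2* rested partly on single libraries: it was 0.60 without control replicate 4 (limma adjusted p = 0.190) and 0.25 without control replicate 3 (adjusted p = 0.811). The other D cyclins differed less between the groups. *Ccnd1* averaged 12.6 and 13.8 FPKM in the control and cKO groups (log2 fold change 0.15, adjusted p = 0.772), and *Ccnd3* 2.48 and 2.502 FPKM (0.05, adjusted p = 0.954). *Ccnd2* was 0.345 to 0.841 times *Ccnd1* in the controls and 0.446 to 0.806 times in the cKO libraries.

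Of the 8 cyclin D partner genes, 4 had a log2 fold change above 0 and 4 below, with a median of -0.01, and none reached an unadjusted p below 0.05. The smallest p values were those of *Rb1*, *Cdk6* and the inhibitor *Cdkn1a*, with log2 fold changes of -0.11, -0.20 and -0.18 (limma adjusted p = 0.730, 0.739 and 0.769). Among 8 proliferation genes, 1 reached an unadjusted p below 0.05, where 5.89% of all genes were higher and 5% lower. It was *Ccnb1*, the mitotic cyclin B1, at 13.7 FPKM in the controls and 19.1 FPKM in the cKO group (limma adjusted p = 0.444). *Top2a* (limma adjusted p = 0.648) and *Birc5* (adjusted p = 0.675) had log2 fold changes of -0.29 and -0.27.

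*Uchl1* (ENSMUSG00000029223, chromosome 5, 66676091 to 66687234, + strand), which encodes a ubiquitin hydrolase abundant in spermatogonia, was the most abundant of the 10 genes, at the 97.3rd percentile of mean control FPKM. It had 95.3, 117, 73.1 and 71.0 FPKM in the controls and 110, 109, 108 and 116 FPKM in the cKO libraries. The 4 cKO values lay close together, below control replicate 2 and above the other 3 controls.

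The means of *Uchl1* were 89.1 ± 21.6 and 111 ± 3.38 FPKM (SD, n = 4 each), a coefficient of variation of 24.2% in the controls and 3.05% in the cKO group. As said for *Sohlh1*, the controls were also the more scattered group over all genes. The log2 fold change was 0.35, with a standard error of 0.16 (limma p = 0.0591 before and adjusted p = 0.487 after adjustment over all genes, exact permutation p = 0.143), and by library left out it ran from 0.25 without control replicate 4 (adjusted p = 0.477) and 0.26 without control replicate 3 (adjusted p = 0.768) to 0.49 without control replicate 2 (adjusted p = 0.292). Without control replicate 1 it was 0.39 for *Uchl1* and 0.43 for *Ccnd2*. The antisense gene *Uchl1os* shares 295 exonic bases with *Uchl1*, but held at most 0.390 FPKM in any library. Overlapping genes on the opposite strand of *Ccnd2*, *Lin28a* and *Sall4* held at most 0.257, 0.460 and 0.299 FPKM, and the fragments of shared bases cannot be told apart without strand.

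The RNA-binding protein gene *Lin28a* (ENSMUSG00000050966, chromosome 4, 134003330 to 134018841, - strand), whose product blocks maturation of let-7 microRNAs, had 22.6, 19.2, 12.5 and 15.5 FPKM in the controls and 9.80, 22.1, 14.9 and 17.0 FPKM in the cKO libraries. The lowest value of the 8 was cKO replicate 1, and the other 3 cKO values fell inside the control range. The means were 17.5 ± 4.41 and 16.0 ± 5.11 FPKM (SD, n = 4 each), with a log2 fold change of -0.15, with a standard error of 0.25 (adjusted p = 0.867 by limma, exact permutation p = 0.629).

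*Lin28a* varied more within groups than any other of the 10, by 0.43 on the log2 scale, and 91.1% of all genes tested varied less. Its sign rested on cKO replicate 1: without it the log2 fold change was 0.06 (limma adjusted p = 0.926), and without control replicate 1 it was -0.0164 (adjusted p = 0.981). The paralog *Lin28b* averaged 7.69 FPKM in the control and 6.54 FPKM in the cKO group (log2 fold change -0.21, adjusted p = 0.654).

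*Nanos3* (ENSMUSG00000056155, chromosome 8, 84173731 to 84185217, - strand), which encodes a translational repressor of germ cells, had 3.39, 7.34, 4.64 and 4.89 FPKM in the controls and 3.80, 6.24, 5.33 and 5.86 FPKM in the cKO libraries. It was the least abundant of the 10, resting on 41 to 123 fragments per library, and the cKO values all lay inside the control range. The log2 fold change was 0.10, with a standard error of 0.23 (adjusted p = 0.915 by limma, exact permutation p = 0.743), and -0.08 without control replicate 1, the library with the lowest value.

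*Nanos2*, the paralog of undifferentiated spermatogonia, was near the limit of the measurement, at 0.195 to 0.353 FPKM in the controls and 0.0660 to 0.417 FPKM in the cKO libraries. It was tested with the wider set of 25931 genes of all types above a mean of 0.1 FPKM, and its limma adjusted p there was 0.977.

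*Sall4* (ENSMUSG00000027547, chromosome 2, 168748332 to 168767943, - strand), a zinc finger factor of germ and stem cells, had 4.52, 7.37, 5.17 and 8.43 FPKM in the controls and 4.97, 6.83, 5.68 and 6.95 FPKM in the cKO libraries. Again the control range enclosed all 4 cKO values. The means were 6.37 ± 1.84 and 6.11 ± 0.948 FPKM (SD, n = 4 each), and the log2 fold change of -0.03, with a standard error of 0.20 (adjusted p = 0.971 by limma, exact permutation p = 0.914) was above 0, at 0.05, when the values were rescaled to TPM. Without control replicate 1 it was -0.18, and it was above 0 without control replicate 2 (0.06), control replicate 4 (0.12), cKO replicate 1 (0.06) or cKO replicate 3 (0.0014).

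Over 11 partner and paralog genes of *Lin28a*, *Nanos3* and *Sall4*, 5 log2 fold changes were above 0 and 6 below, with a median of -0.01. None reached an unadjusted p below 0.05. The smallest p values belonged to *Lin28b*, *Nanos1* (log2 fold change 0.20, limma adjusted p = 0.678) and *Sall2* (0.18, adjusted p = 0.684).

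*Rarg* (ENSMUSG00000001288, chromosome 15, 102234938 to 102257517, - strand), the retinoic acid receptor gamma gene, had 7.77, 7.60, 7.30 and 6.57 FPKM in the controls and 6.68, 8.04, 7.0 and 6.58 FPKM in the cKO libraries. These were the steadiest values of the 10, with a spread within groups of 0.12 on the log2 scale, less than which 14.2% of all genes tested varied. The log2 fold change was -0.05, with a standard error of 0.11 (adjusted p = 0.907 by limma, exact permutation p = 0.600), 0.03 when rescaled to TPM and -0.0181 without control replicate 1.

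*Rara*, the receptor gene that Sertoli cells and later germ cells also make, had 10.9, 12.5, 10.96 and 9.91 FPKM in the controls and 10.4, 13.2, 13.1 and 14.7 FPKM in the cKO libraries (log2 fold change 0.21, limma adjusted p = 0.593). *Rarg* was 0.607 to 0.716 times *Rara* in the controls and 0.447 to 0.640 times in the cKO libraries, and those ranges overlapped. *Rarb* held at most 0.0895 FPKM in any library.

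Around the receptor, 7 of 9 genes of retinoid receptors and meiotic entry could be tested, with a median log2 fold change of 0.14. At an unadjusted limma p below 0.05 *Crabp1* was higher and *Stra8* lower, beside 5.89% and 5% of all genes. *Stra8*, which retinoic acid induces at meiotic entry, had 5.93, 4.53, 19.8 and 12.9 FPKM in the controls and 2.03, 3.93, 2.93 and 4.70 FPKM in the cKO libraries. It was lower on average in the cKO group, by a log2 fold change of -1.47 with a standard error of 0.44, but cKO replicate 4 lay above control replicate 2 and the adjusted p was 0.280 by limma, so it was not called.

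*Crabp1*, a retinoic acid-binding protein gene, averaged 28.0 FPKM in the control and 39.8 FPKM in the cKO group (limma adjusted p = 0.364), and *Rxra*, a partner receptor, 7.38 and 8.88 FPKM (adjusted p = 0.498). Of 8 retinoid enzyme genes, 7 could be tested, and 1 reached an unadjusted p below 0.05 upward and 2 downward. These were the synthesis enzyme *Aldh1a3* (1.13 and 1.804 FPKM in the control and cKO groups, adjusted p = 0.290), the retinol dehydrogenase *Rdh10* (4.32 and 3.06 FPKM, adjusted p = 0.324) and the degrading enzyme *Cyp26a1* (0.458 and 0.197 FPKM, adjusted p = 0.514 in the wider set). None passed the adjusted threshold. Of all genes in the main fit, 5.89% were higher and 5% lower at that unadjusted p.

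FPKM is per length, here the length of all annotated exons of a gene together. That was 8911 bases for *Kit*, with 8 annotated transcripts, and 1289 for *Sohlh1*, with 1. The order of levels therefore also depends on that length. It ran in the controls from *Uchl1* (mean 89.1 FPKM) through *Dmrtb1* (36.7), *Sohlh1* (33.0), *Lin28a* (17.5), *Sohlh2* (13.96), *Kit* (9.32), *Rarg* (7.31), *Ccnd2* (6.57) and *Sall4* (6.37) to *Nanos3* (5.06 FPKM). *Uchl1* was 17.6 times *Nanos3*. Neighbours whose control ranges did not overlap were *Uchl1* and *Dmrtb1*, *Sohlh1* and *Lin28a*, *Sohlh2* and *Kit*, and *Kit* and *Rarg*. The other 5 neighbouring pairs overlapped, although *Sall4* was above *Nanos3* within each of the 4 control libraries. In the cKO group the order of the means differed at 2 places: *Sohlh2* stood above *Lin28a*, and *Ccnd2* above *Rarg*. *Rarg* was higher than *Ccnd2* in 3 of 4 control libraries and in 0 of 4 cKO libraries.

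Seen by library, the 10 genes did not rise or fall as a block. The number above their own median of 8 libraries was 3, 7, 3 and 3 in control replicates 1 to 4 and 5, 8, 4 and 7 in cKO replicates 1 to 4. Control replicate 1 was low for *Dmrtb1* (-0.62 from the median on the log2 scale) and high for *Lin28a* (0.48), and cKO replicate 1 was low for *Lin28a* (-0.72) and high for *Sohlh2* (0.48). Control replicate 3 was lowest for *Ccnd2* (-0.75), and control replicate 4 for *Uchl1* (-0.61). The sum of the 10 genes ranged from 195 to 273 FPKM in the controls and from 268 to 273 FPKM in the cKO group, a sum in which *Uchl1* is the largest term.

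**Figure D3:**
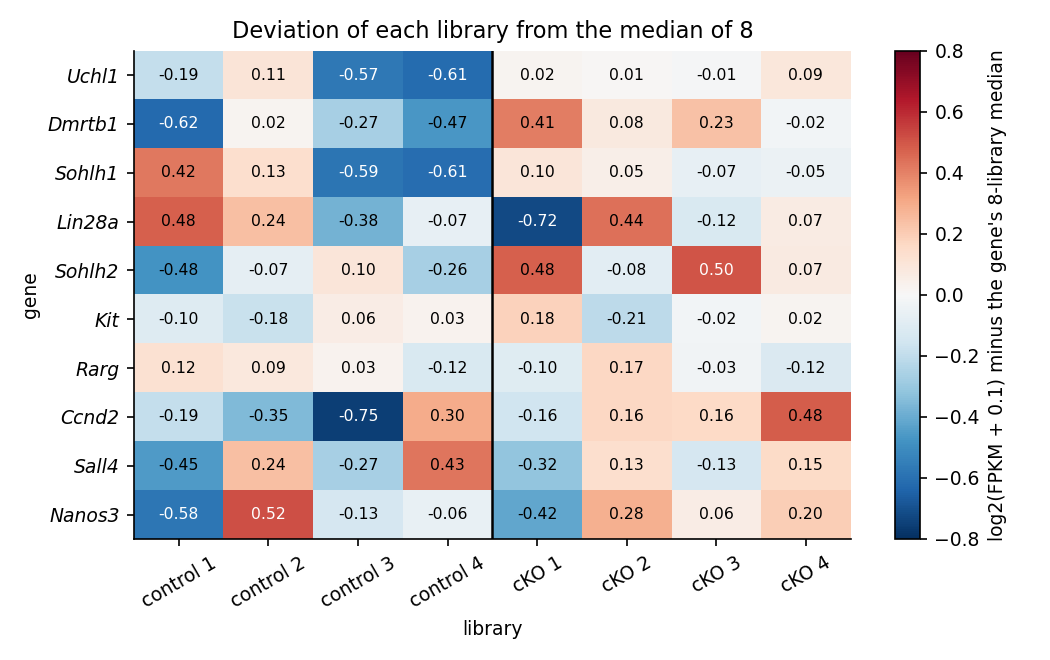
Deviation of log2(FPKM + 0.1) from the median of the 8 libraries, for each gene (in order of mean control level) and library; red is above and blue below the median, and the line divides control from cKO libraries. No gene was of 1 sign through a whole group and of the other sign through the other group, and control replicates 3 and 4 were low for both *Uchl1* and *Sohlh1*.

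Over the 8 libraries, the mutually closest of the 10 genes, by the correlation of log2(FPKM + 0.1), were *Sohlh2* with *Dmrtb1* (Pearson r = 0.87), *Sohlh1* with *Uchl1* (r = 0.77), *Nanos3* with *Sall4* (r = 0.74) and *Lin28a* with *Rarg* (r = 0.66). *Kit* was closest to *Sohlh2* (r = 0.53). Among all 12141 genes the nearest to *Kit* were *Zdhhc3* (r = 0.94), *Usp7* (0.92) and *Psmd1* (0.91), to *Dmrtb1* *Psmc1* (0.98), *Hmga1* (0.98) and *Ddx59* (0.97), and to *Sohlh2* *Slc27a2* (0.95), *Arpc2* (0.94) and *Kbtbd3* (0.94). *Sohlh1* was nearest to *Tbc1d13* (0.99), *Ski* (0.98) and *Cadm4* (0.98), *Uchl1* to *Nhp2* (0.98), *Aqp8* (0.97) and *Sema5b* (0.97), and *Ccnd2* to *Lamb1* (0.99), *Sytl4* (0.99) and *Rap2c* (0.98). *Lin28a* was nearest to *Sox13* (0.98), *Gm18336* (0.97) and *Phka1* (0.97), *Nanos3* to *Grm4* (0.97), *Foxf1* (0.97) and *Mageb4* (0.95), *Sall4* to *Tcf7l2* (0.97), *Gm6871* (0.97) and *Gm5751* (0.96), and *Rarg* to *Iqcc* (0.92), *Tmc4* (0.90) and *Grk5* (0.90). Each is the highest of 12141 candidates over 8 points that share both group and library, so these values describe the libraries and no p is given.

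The lists of neighbouring germ cell stages did not move as 1 block either. Of 18 genes of undifferentiated spermatogonia, 9 had a log2 fold change above 0 and 9 below, with a median of 0.01. At an unadjusted limma p below 0.05, where 5.89% of all genes were higher and 5% lower, 0 were lower and 1 was higher. This was *Etv5*, a factor of stem cell renewal that Sertoli cells also make, at 3.88 FPKM in the control and 6.47 FPKM in the cKO group (limma adjusted p = 0.230); *Lhx1* (adjusted p = 0.596 in the wider set) and *Gfra1* (adjusted p = 0.538) followed. Of 10 spermatocyte genes, 3 had a log2 fold change above 0 and 7 below, with a median of -0.25. At an unadjusted limma p below 0.05, beside the same shares of all genes, 0 were higher and 3 lower. These were *Ldhc* (524 and 313 FPKM in the control and cKO groups, adjusted p = 0.287), *Piwil1* (adjusted p = 0.442) and *Ccna1* (adjusted p = 0.360 in the wider set). Of 7 round spermatid genes 4 could be tested, with a median of 0.14, and none reached an unadjusted p below 0.05.

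Somatic markers were higher on average in the cKO libraries, with 0 called in any list. All 6 Leydig genes had a log2 fold change above 0, with a median of 0.59, and their sum ranged from 16.5 to 37.9 FPKM in the controls and from 28.6 to 46.7 FPKM in the cKO group. All 5 macrophage genes (median 0.72) and all 5 endothelial genes (median 0.49) were above 0 too, as were 9 of 10 Sertoli genes (median 0.15) and 4 of 5 peritubular genes (median 0.27). Their sums ranged from 6.35 to 13.8 against 14.02 to 17.3 FPKM for macrophages, 5.15 to 12.7 against 11.6 to 14.8 FPKM for endothelium, 1178 to 1588 against 1537 to 1815 FPKM for Sertoli cells and 44.8 to 74.95 against 74.0 to 104 FPKM for peritubular cells. The mast cell genes, of which *Cpa3* was at 0 in 7 of the 8 libraries, summed to at most 0.313 FPKM in any library. At an unadjusted p below 0.05, 3 Leydig, 3 macrophage, 2 endothelial, 1 peritubular and 0 Sertoli genes were higher. Among them were *Hsd3b1* (11.2 and 20.2 FPKM, limma adjusted p = 0.390) and *Csf1r* (1.63 and 2.67 FPKM, adjusted p = 0.286). Of all genes in the main fit, 5.89% were higher at that unadjusted p. In the wider set, used for list genes outside the filter, 2411 of 25931 passed it in either direction. The part of these markers in the higher mean values of *Dmrtb1*, *Sohlh2*, *Ccnd2* and *Uchl1* was not tested.

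**Figure D4:**
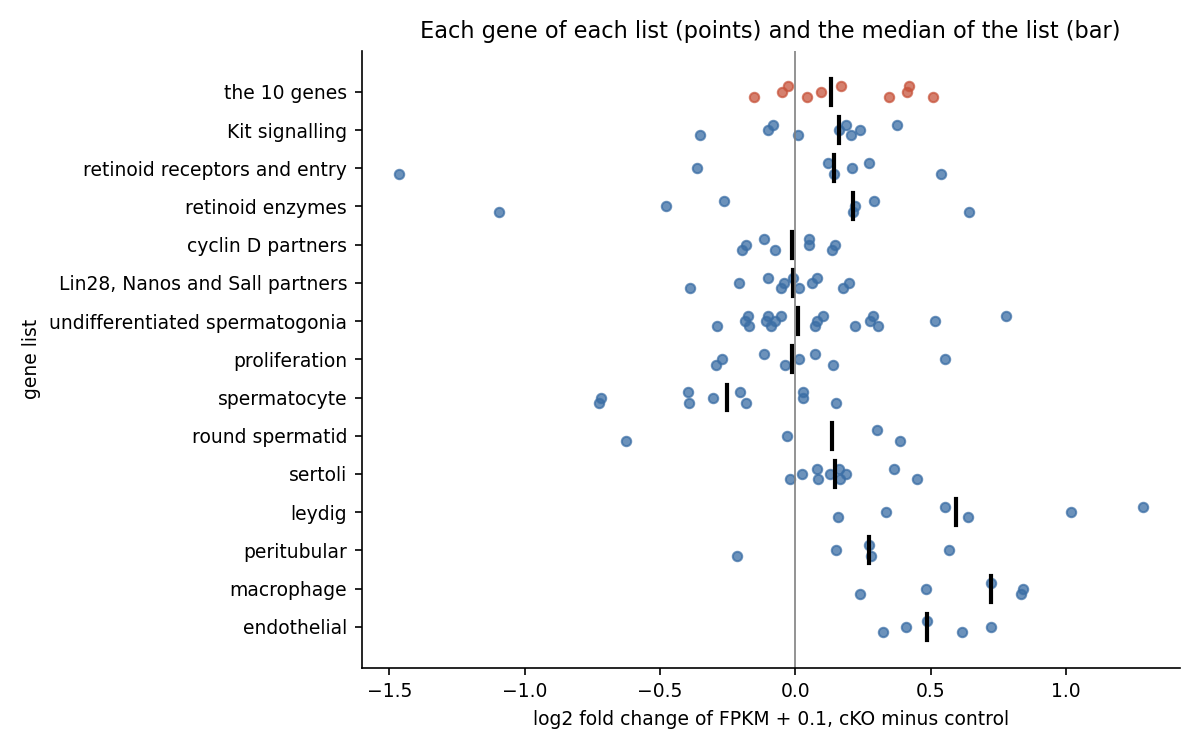
Log2 fold change (cKO minus control) of each tested gene of the 10 genes (red) and of the other lists (blue); black bars are list medians, on the scale of log2(FPKM + 0.1). The medians ran from -0.25 for spermatocyte genes to 0.72 for macrophage genes, with the 10 genes at 0.13, and no gene drawn passed the calling thresholds.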

How the data were processed

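Whole-testis RNA-seq was available for 4 control and 4 cKO mice. The authors deposited FPKM values for 54532 genes with a gene length. The aligner, the counting tool and the use of strand are not given in the sources used here; the submitters' processing notes name GRCm38 and mm10. FPKM multiplied by length gave whole fragments in 100% of values above 0 (tolerance 0.02), and these recovered fragments were used for depth and for 1 alternative fit. In GENCODE vM21 on GRCm38, 98.33% of the matched genes had the same start and end. Within groups even the 2 most alike libraries differed by more than counting noise (3.94 times it), and each stands for 1 mouse.

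Log2(FPKM + 0.1), a scale that understates changes at low FPKM, was fitted with limma 3.58.1 in R 4.3.3 (lmFit, eBayes with a trend), with no covariate, on the 12141 protein-coding genes whose mean FPKM was above 1 in each group. Benjamini-Hochberg adjustment ran over all of them, and a call needed an adjusted p below 0.05 together with a log2 fold change beyond 1 in either direction. All 10 genes passed this filter, so none needed the wider fit of 25931 genes (all types, mean above 0.1 FPKM), which served for list genes outside the filter. Single genes were also tested by an exact permutation test over the 70 assignments of 8 libraries, two-sided. Nothing says that the mice of a group came from separate litters, so p-values measure the spread between these animals. The study's methods describe the controls as littermates, but which mice shared a litter is not given. The fit therefore holds no term for litter. The procedure was tested on simulated data with changes larger than that of any of the 10 genes and no outlying library. That test therefore does not show how often changes of the size seen here would be found. Promoter windows are from RefSeq, and matplotlib 3.10.9 drew the figures.

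The 10 genes and the lists were chosen with earlier results of these data known. Named are all 10 genes, up to 3 genes of each list with the smallest p plus ligands, partners and paralogs, and the 3 genes with the highest correlation to each of the 10; 1 item of the Kit signalling list is not reported here. *Ybx2*, *Spaca1* and *Tssk1* were named after their values were seen, as ends of their lists. Both groups number their replicates alike, but the numbers were not used as pairs. The study's methods give tamoxifen at other times than the labels, and the label times were used.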

Additional observations from a re-analysis of the deposited data

How the results depend on the processing

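None of the 10 genes was called under any of the 20 alternatives (other pseudocounts, filters, centring, TPM, array weights, a replicate block, voom, eBayes with no trend, the adjusted p alone, and each library left out), and the lowest adjusted p of any of them under any alternative was 0.0845, for *Ccnd2* with array weights. The number of all genes called was 2 in the main limma fit, 8 over all types of gene and 5 without a filter. It was 0 above 5 FPKM, 1 with centring and with TPM, 0 with the block and 57 with array weights. With a library left out it was 0 to 3. The cause of these differences was not tested. The study's own test, DESeq2, called more genes than the main fit at the same thresholds. *Dmrtb1*, *Sohlh2*, *Ccnd2*, *Uchl1* and *Sohlh1* stayed above 0 under every alternative. The log2 fold change of *Lin28a* was 0.0179 and that of *Nanos3* -0.0454 with array weights, and with TPM that of *Sall4* was 0.0494 and that of *Rarg* 0.0298, each of the opposite sign to the reported value. With a library left out, *Sohlh1* ranged from 0.0182 to 0.36, *Uchl1* from 0.25 to 0.49, *Kit* from -0.0211 to 0.11, *Lin28a* from -0.33 to 0.0609, *Nanos3* from -0.0758 to 0.29 and *Sall4* from -0.18 to 0.12. The median of the 10 genes ranged from 0.08 to 0.28 with a library left out and was 0.21 with TPM, where the median of all genes was 0.09.

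The replicate block left every log2 fold change as it was and gave *Dmrtb1* an adjusted p of 0.213, with 3 of the 10 genes at an unadjusted p below 0.05 in place of 2 and no change of call. Those were *Dmrtb1*, *Sohlh2* and *Ccnd2*. With centring, TPM, voom or without control replicate 2 there were 3 as well, *Uchl1*, *Dmrtb1* and *Sohlh2*. Over all genes, centring, TPM and voom gave 1350, 1267 and 1338 of the 12141. Leaving out control replicate 2 gave 1332 of 12115. Without cKO replicate 3 there was 1 of the 10 genes, *Dmrtb1*, and 799 of 12157 over all genes. Between control and cKO libraries of the same number, the deviations from the group mean had correlations of 0.0757, 0.131, 0.288 and 0.406, 1 of them under 0.1. Between libraries of different numbers they ran from -0.474 to 0.162. The block also raised the genes at an unadjusted limma p below 0.05 from 1322 to 1777 of the 12141. No label says that the numbers are pairs, so they were not used as pairs. Whether the mice were paired was not settled by these values. By the median in place of the mean, 8 of the 10 genes kept their rank in the controls. Depth limits *Nanos3* most, since it rested on 41 to 123 fragments per library. Intervals of single libraries would cover counting error only.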
